A study of Mus musculus with 6 samples.

Results

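The 10 genes described here encode autophagy cargo receptors and form a list given by gene name: Sqstm1, Nbr1, Optn, Tax1bp1, Calcoco1, Ncoa4, Tollip, Wdfy3, Bnip3 and Bnip3l. All 10 were found by Ensembl identifier among the 56305 genes of the deposited table, and all 10 passed the filter on low values. The table holds RNA-seq of whole livers from 3 WT and 3 Vps15LKO mice, with 1 library per liver. All were males 5 weeks old, with free access to food, whose livers were taken at ZT6 (6 h after lights on). Vps15LKO mice carry AlbCre and floxed Vps15 alleles (AlbCre+;Vps15 f/f), so the albumin promoter, which is active in hepatocytes, drives a chronic deletion of Vps15 in the liver. The control livers are labelled WT, and whether they carry floxed alleles or Cre is not given in the sources used here.

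Selective autophagy removes defined cargo, such as protein aggregates, ferritin, mitochondria or pieces of endoplasmic reticulum. A cargo receptor binds its cargo on one side, often through ubiquitin, and on the other side binds lipidated Atg8 proteins (LC3 and GABARAP) on the forming autophagosome through a short LC3-interacting motif. Most receptors are enclosed and degraded in the lysosome together with their cargo, and p62, the product of Sqstm1, is widely used for this reason as a protein readout of autophagic flux. Vps15 is the regulatory subunit of class 3 phosphatidylinositol 3-kinase, the lipid kinase complex with Vps34 that makes the phosphatidylinositol 3-phosphate on which autophagosomes form. The comparison asked how transcript levels of the receptors differ between WT and Vps15LKO livers, and transcript levels say nothing of receptor protein.

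The libraries held 16137093 to 18110223 reads on genes in WT and 17937021 to 18088708 in Vps15LKO livers. Despite these similar depths, the authors' size factors were 0.742 to 0.801 in WT and 1.23 to 1.41 in Vps15LKO, so that deposited values and shares of the reads give different pictures. Pik3r4, which encodes Vps15, had 508, 573 and 459.7 normalized counts in WT livers and 341, 362 and 355 in livers of Vps15LKO mice (log2 fold change −0.54, adjusted p = 0.0021), but 0.19 when every library was scaled to the same total of reads, and reads over the deleted exons were not counted apart. Cell type markers differed between the genotypes. Counts of markers here use the rule of the next paragraph, which called 33.5% of all tested genes higher and 33.0% lower. Of the hepatocyte markers, 7 of 8 were lower, and their summed normalized counts were 2602290 to 3069750 in WT against 783813 to 1204450 in Vps15LKO livers. Kupffer cell markers were higher for 5 of 8 and lower for 1, with sums of 4588 to 5256 against 11104 to 13568. They did not move together. Means rose for Cd68 (416 to 3707), Csf1r (1557 to 4267) and Adgre1 (406 to 1123), and fell for Cd163 (247 to 29.5). Vsig4 and Marco were also higher, while Clec4f and Timd4 were not called. All 9 stellate cell markers were higher (sums 6978 to 7486 against 30123 to 35315). The summed recruited macrophage markers were at 367 to 439 against 7164 to 9618 and the summed cholangiocyte markers at 182 to 221 against 1336 to 2329, but some of these genes passed the filter only through the Vps15LKO livers. With a filter of 20 in every liver 2 markers of each of these lists were called higher, beside 5 of 5 and 5 of 6. Endothelial markers were mixed, with 3 of 7 higher and 4 lower (6309 to 6853 against 4941 to 6517). The lower count was 2 when any 1 liver other than Vps15LKO replicate 2 was left out, and with equal read totals 4 were higher and 0 lower. The lymphocyte markers had low counts, with sums of 102 to 125 against 180.4 to 218 and 3 of 7 called higher, but 0 with the filter of 20 in every liver and 1 (with 2 lower) under quantile normalization. No listed marker was at 0 in all 6 livers. In whole liver, fewer cells of a type and less RNA per cell cannot be told apart, and the part of these differences in the receptor values was not tested.

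Sqstm1 was higher in Vps15LKO livers and Bnip3 was lower, with a 1.83-fold level for Sqstm1 and a change of −67.2% for Bnip3, and these were the largest changes among the receptors. In all, 1 of the 10 receptors rose and 7 fell (Nbr1, Optn, Tax1bp1, Ncoa4, Tollip, Bnip3 and Bnip3l), while Calcoco1 and Wdfy3 did not pass the test. When read totals were made equal across the libraries, 6 of the 7 that fell changed direction and Bnip3 did not. A call here means an adjusted p below 0.05 (limma on log2(normalized count + 1), Benjamini-Hochberg adjustment over 15430 genes) together with a change of 1.2-fold or more. By the same rule 66.5% of all tested genes were called, 33.5% higher and 33.0% lower, so a call in itself sets no receptor apart. The median log2 fold change of the 10 was −0.31, beside −0.02 over all tested genes. The 8 called genes were also the 8 whose 3 WT and 3 Vps15LKO values did not overlap, a pattern seen in 73.2% of tested genes, 36.4% upwards and 36.8% downwards. All values given are normalized counts as deposited unless another scale is named.

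**Figure D1:**
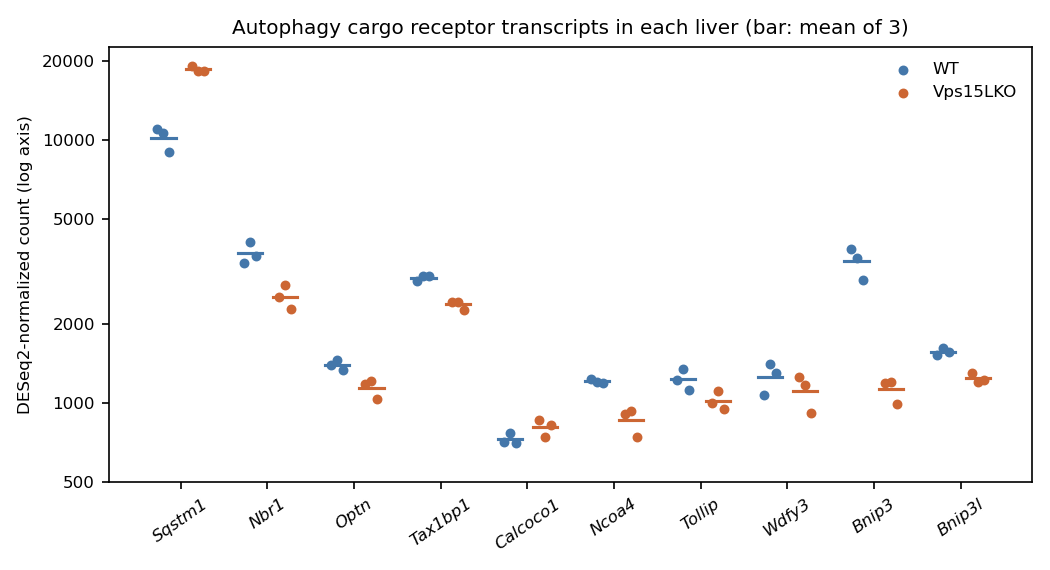
Normalized counts (log axis) of the 10 cargo receptor genes in each liver, with 1 point per liver and a bar at the mean of 3, WT in blue and Vps15LKO in orange. The 3 Vps15LKO livers lie above the WT livers for Sqstm1 and below them for 7 genes (6 of which change direction with equal read totals), and the genotypes overlap for Calcoco1 and Wdfy3.

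Sqstm1 encodes p62, the ubiquitin-binding receptor that clusters ubiquitylated proteins into condensates and also binds Keap1, the inhibitor of the transcription factor Nrf2. The gene (ENSMUSG00000015837) lies on chromosome 11 of GRCm38 from 50199366 to 50210827, on the minus strand. Its transcript was at 10952, 10595 and 9025 normalized counts in WT livers, with a mean of 10191 and an SD of 1025 (n = 3), and at 19129.5, 18332 and 18299 in livers of Vps15LKO mice, with a mean of 18587 and an SD of 470.0 (n = 3). The lowest Vps15LKO liver was above the highest WT liver by far more than the spread within either genotype. The log2 fold change was 0.87 with a standard error of 0.14 (95% interval 0.56 to 1.19, adjusted p = 0.00056 by limma), at percentile 77.2 among all tested genes. Sqstm1 shares 580 exonic bases with Mrnip on the other strand, which had 130 to 200 reads per library beside at least 6695 for Sqstm1.

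Nbr1, a ubiquitin-binding receptor that works together with p62 in the same condensates and has a related domain plan, moved the other way. The gene (chromosome 11, 101552149 to 101581951, plus strand) had 3398, 4092 and 3629 normalized counts in WT livers and 2514, 2805 and 2272 in livers of Vps15LKO mice. All Vps15LKO livers were below all WT livers. This was a change of −31.8%, or −0.55 on the log2 scale with a standard error of 0.12 (adjusted p = 0.0028 by limma).

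Optineurin and Tax1bp1 bind ubiquitylated cargo, including damaged mitochondria for Optn, and both work with the kinase Tbk1 or its adaptors. Optn (chromosome 2, 5020642 to 5064051, minus strand) was at 1388, 1458 and 1329 normalized counts in WT livers and at 1176, 1204 and 1036 in livers of Vps15LKO mice (log2 fold change −0.29, standard error 0.09, adjusted p = 0.022 by limma). Tax1bp1 (chromosome 6, 52713729 to 52766780, plus strand) was at 2909, 3028 and 3029 in WT and at 2421, 2420.5 and 2259.7 in Vps15LKO livers (log2 fold change −0.34, standard error 0.09, adjusted p = 0.0076). The WT values of Tax1bp1 differed among themselves very little, with an SD of 68.9 on a mean of 2989. The Optn call was lost without WT replicate 2 (adjusted p = 0.0735), Vps15LKO replicate 1 (0.0520) or Vps15LKO replicate 3 (0.0733).

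Tollip is an endosomal adaptor with a ubiquitin-binding CUE domain that has been linked to the clearance of aggregates. The gene (chromosome 7, 141874813 to 141918507, minus strand) had 1217, 1345 and 1120.2 normalized counts in WT livers and 1000.4, 1107 and 947 in livers of Vps15LKO mice. The lowest WT liver and the highest Vps15LKO liver were nearly level. The log2 fold change was −0.27 with a standard error of 0.10 and an adjusted p of 0.046 by limma, the nearest to the threshold of the 8 calls. Without WT replicate 1, WT replicate 2, Vps15LKO replicate 1 or Vps15LKO replicate 3 the adjusted p was 0.086, 0.15, 0.13 and 0.13, and the call as lower was kept in 8 of the 21 alternatives, lost in 12 and turned to higher in 1.

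Ncoa4 is the receptor for ferritin and so links autophagy to the release of stored iron. The gene (chromosome 14, 32159865 to 32179855, plus strand) had 1229, 1197 and 1190.3 normalized counts in WT livers and 905, 925 and 743 in livers of Vps15LKO mice. The WT livers lay close together (SD 20.9, n = 3), and the Vps15LKO livers were more spread (SD 100.1, n = 3) and all lower. On the log2 scale the change was −0.50 with a standard error of 0.10 (adjusted p = 0.0027 by limma).

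The other 2 receptors showed overlapping values. Calcoco1, a receptor for endoplasmic reticulum and Golgi membranes (chromosome 15, 102706777 to 102722178, minus strand), was at 705, 767 and 702 normalized counts in WT livers and at 855, 737 and 825 in livers of Vps15LKO mice. Its log2 fold change of 0.15 had a 95% interval from −0.07 to 0.37 (adjusted p = 0.19 by limma). Wdfy3, or Alfy, is a very large scaffold that brings p62-bound aggregates to the autophagy machinery (chromosome 5, 101832956 to 102069921, minus strand). It was at 1067, 1401 and 1293 in WT and at 1249, 1171 and 915 in Vps15LKO livers. The log2 fold change of −0.18 had an interval from −0.51 to 0.16 (adjusted p = 0.31), an interval that holds both 0 and the value of Tollip.

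Bnip3 and Bnip3l (Nix) are related proteins of the outer mitochondrial membrane that bind Atg8 proteins directly, without ubiquitin, and mediate mitophagy. Both are known targets of hypoxia-inducible factor 1. Bnip3 (chromosome 7, 138890836 to 138909519, minus strand) had 3852, 3559.9 and 2921 normalized counts in WT livers, a mean of 3444 with an SD of 476 (n = 3), and 1192, 1201 and 984 in livers of Vps15LKO mice, a mean of 1126 with an SD of 123 (n = 3). The highest Vps15LKO liver was far below the lowest WT liver. The log2 fold change was −1.61 with a standard error of 0.13 (95% interval −1.91 to −1.31, adjusted p = 1.49e-05 by limma), at percentile 5.69 among all tested genes.

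Bnip3l (chromosome 14, 66985239 to 67008877, minus strand) was at 1512, 1615 and 1562 in WT and at 1297, 1196 and 1214 in Vps15LKO livers. The groups did not overlap, and the log2 fold change was −0.34 with a standard error of 0.08 (adjusted p = 0.0063 by limma). A pseudogene on chromosome 12, Bnip3l-ps, had 70 to 159 reads per library, and how the counting shared reads between the copies is not given in the sources used here.

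The antisense gene Gm45507 shares 504 exonic bases with Bnip3 and had 856 to 1746 reads per library. Its values were 2315, 2039 and 1690.4 normalized counts in WT livers and 706, 714 and 605 in livers of Vps15LKO mice (log2 fold change −1.57). The library kit marks strand, but which strand setting was used for counting is not given in the sources used here, so reads of Bnip3 and of Gm45507 over the shared bases may not have been told apart. Smaller overlaps on the other strand were present at Optn (73 bases with 4930551O13Rik, 96 to 163 reads), Tax1bp1 (160 bases with Gm43966, 92 to 123 reads) and Wdfy3 (392 bases with Gm20548, 69 to 145 reads, and 162 bases with Gm42934, 7 to 16 reads).

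Bnip3 was the only receptor whose promoter window held the palindromic E-box CACGTG, the element read by the clock factors Bmal1 and Clock and by related factors, and its sequence is shown for this reason. RefSeq windows of 300 bases (250 before and 50 after a start, GRCm38.p6) were given for 8 of the 10 receptors, as 12 windows, and none for Wdfy3 and Bnip3l. The part of the Bnip3 window upstream of its annotated exons, chr7:138909520-138909756, is given 5′ to 3′ on the minus strand with the E-box in capitals.
Bnip3: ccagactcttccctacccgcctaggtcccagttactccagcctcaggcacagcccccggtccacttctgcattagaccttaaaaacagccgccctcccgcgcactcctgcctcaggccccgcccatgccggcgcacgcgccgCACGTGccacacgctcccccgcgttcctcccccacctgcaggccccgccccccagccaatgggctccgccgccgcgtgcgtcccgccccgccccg
The E-box starts 108 bases before the start (position −108) and holds the hypoxia response core ACGTG on both strands. Over all 32851 windows, 7.15% held CACGTG, 19.6% held ACGTG and 12.4% held the antioxidant response core TGACNNNGC, each on either strand. Among the receptors ACGTG was also found in a window of Nbr1 (position −139), in a window of Tax1bp1 (−155) and in a pair of windows of Ncoa4 (−71 and −68). The antioxidant core was found in a window of Tax1bp1 (−205) and a window of Ncoa4 (−44). None of these letters was found in the windows of Sqstm1, Optn, Calcoco1 and Tollip, and a match or its absence is a description of these windows only.

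Most of the falls depended on the scaling of the libraries. When every library was scaled to the same total of reads, 7 receptors were called higher and 1 lower, beside 66.7% and 11.1% of all tested genes (77.8% in either direction). Under that scaling the median of all tested genes moved up by 0.72 on the log2 scale, and the median of the receptors was 0.41 beside 0.70 for all genes. Sqstm1 and Bnip3 kept their direction and their call, at log2 fold changes of 1.6 and −0.88. As reads scaled to 1000000 reads on genes, Sqstm1 was at 464, 468 and 415 in WT and at 1397, 1251 and 1434 in Vps15LKO livers, and Bnip3 was at 163, 157 and 134 and at 87.0, 81.9 and 77.1.

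For 7 of the other 8 receptors the direction against 0 changed with the scaling, and Calcoco1 stayed above 0. Nbr1 went to 0.17 and Ncoa4 to 0.23 on the log2 scale with equal totals, neither called. Optn (0.43), Tax1bp1 (0.39), Tollip (0.46), Wdfy3 (0.55), Bnip3l (0.39) and Calcoco1 (0.88) were called higher with equal totals. Measured against the median gene, Nbr1, Optn, Tax1bp1, Ncoa4, Tollip, Wdfy3 and Bnip3l lay below it and Calcoco1 above it in the deposited values and with equal totals. Quantile normalization, which gives every library the same distribution of values, called 2 receptors higher (Sqstm1 and Calcoco1) and 2 lower (Bnip3 and Ncoa4), beside 30.4% and 37.6% of all tested genes (68.0% in either direction). There the median of all tested genes was −0.10, and Nbr1 (−0.0094), Optn (−0.0090), Tollip (−0.015), Bnip3l (−0.020), Tax1bp1 (0.17) and Wdfy3 (0.086) lay above it, all 6 without a call. Over the 21 alternatives tried, Sqstm1 stayed higher in 21 (log2 fold change 0.78 to 1.97) and Bnip3 lower in 21 (−1.72 to −0.88).

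**Figure D2:**
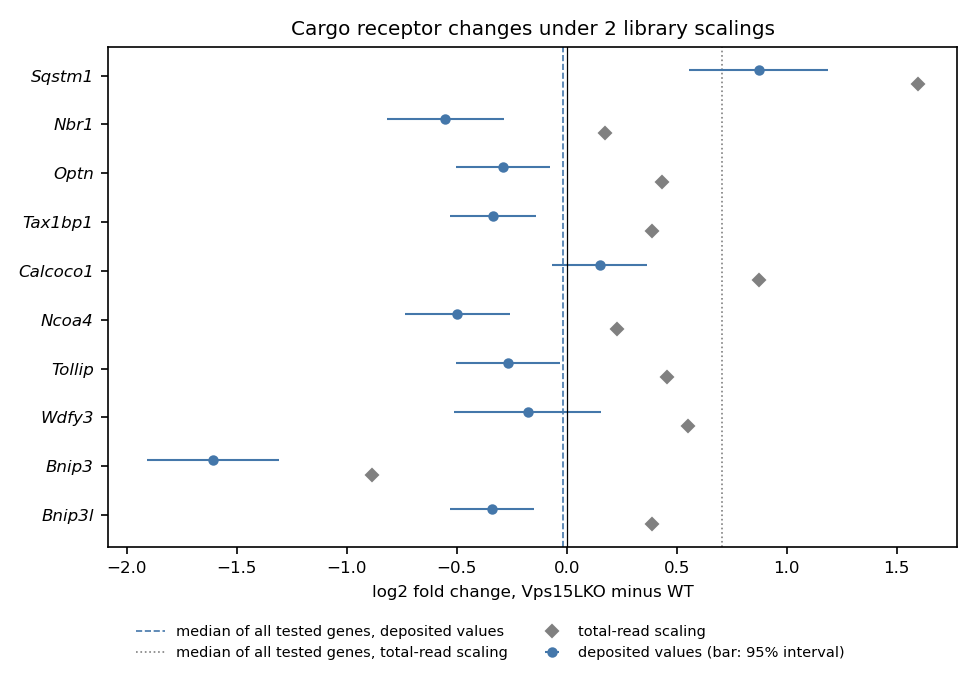
Log2 fold change (Vps15LKO minus WT) of each receptor from the deposited values (blue, bar for the 95% interval) and with equal read totals (grey diamonds), with dashed and dotted lines at the medians of all tested genes. Sqstm1 lies to the right and Bnip3 to the left of 0 under both, while 7 other genes change side.

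A ratio of 2 genes within a liver is the same under any scaling by 1 factor per library, since the factor cancels, though not under quantile normalization. The ratio of Sqstm1 to Nbr1 normalized counts was 3.22, 2.59 and 2.49 in WT and 7.61, 6.53 and 8.05 in Vps15LKO livers. On the log2 scale this was 1.46 ± 0.20 against 2.88 ± 0.16 (SD, n = 3), a difference of 1.42. The p62 and Nbr1 transcripts, whose proteins share condensates, were thus further apart in each Vps15LKO liver than in any WT liver. Under quantile normalization the separate log2 fold changes were 1.97 for Sqstm1 and −0.0094 for Nbr1.

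The ratio of Bnip3 to Bnip3l was 2.55, 2.20 and 1.87 in WT and 0.919, 1.0 and 0.811 in Vps15LKO livers. The mean log2 ratio went from 1.13 ± 0.22 to −0.14 ± 0.16 (SD, n = 3), a difference of −1.27. Bnip3 reads thus exceeded those of Bnip3l in every WT liver and were level with or below them in every Vps15LKO liver. The ratio of Ncoa4 to its cargo Fth1, the ferritin heavy chain, was 0.0370, 0.0385 and 0.0457 in WT and 0.0180, 0.0214 and 0.0136 in Vps15LKO livers, a log2 difference of −1.21. Fth1 itself rose (33179, 31049 and 26027 against 50270.4, 43316 and 54481 normalized counts, log2 fold change 0.72, adjusted p = 0.016 by limma), although its near-identical copies leave its count uncertain. The call was lost without WT replicate 2 (adjusted p = 0.054), WT replicate 3 (0.053) or Vps15LKO replicate 1 (0.0765).

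The ratio of Optn to Tax1bp1 overlapped between the genotypes, with mean log2 values of −1.10 ± 0.07 and −1.06 ± 0.06 (SD, n = 3), a difference of 0.05. An exact two-sided permutation test gave p = 0.1 for the ratios Sqstm1 to Nbr1, Bnip3 to Bnip3l and Ncoa4 to Fth1, the smallest that 3 livers against 3 allow, and 0.5 for Optn to Tax1bp1. Adjusted over the 4 ratios, these exact p-values were 0.133 and 0.5, so the design cannot reach 0.05 here.

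**Figure D3:**
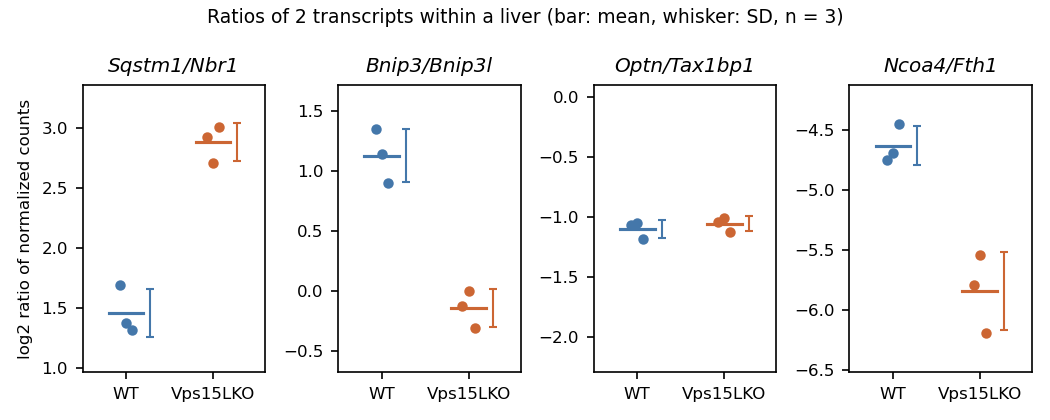
Log2 ratio of 2 normalized counts in each liver for 4 gene pairs, with the mean (bar) and SD (whisker) of 3 livers, all axes spanning the same range. The genotypes are apart for Sqstm1/Nbr1 (difference 1.42), Bnip3/Bnip3l (−1.27) and Ncoa4/Fth1 (−1.21) and overlap for Optn/Tax1bp1 (0.05).

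The make-up of the receptor transcripts shifted towards Sqstm1. Levels of different genes were compared per kilobase of annotated exons. Sqstm1 made up 44.9% ± 1.12 of the length-scaled sum of the 10 genes in WT and 71.3% ± 1.3 in livers of Vps15LKO mice (SD, n = 3), and Bnip3 went from 22.5% ± 1.5 to 6.39% ± 0.531. Each of the other 8 held under 9% of the sum in either genotype, the highest of them being Nbr1, at 8.02% in WT and 4.74% in Vps15LKO livers. Calcoco1 held 1.88% and 1.81%. As normalized counts without length scaling, the 10 genes together had 28231, 29058 and 25801 in WT and 31739, 31099 and 29494 in Vps15LKO livers. As reads scaled to 1000000 reads on genes, the sums were 1196, 1285 and 1186 in WT and 2317, 2122 and 2311 in Vps15LKO livers. On both scales the sum was higher in all Vps15LKO livers, and Sqstm1 alone held 38.8%, 36.5% and 34.98% of these reads in WT and 60.3%, 58.9% and 62.0% in Vps15LKO livers.

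**Figure D4:**
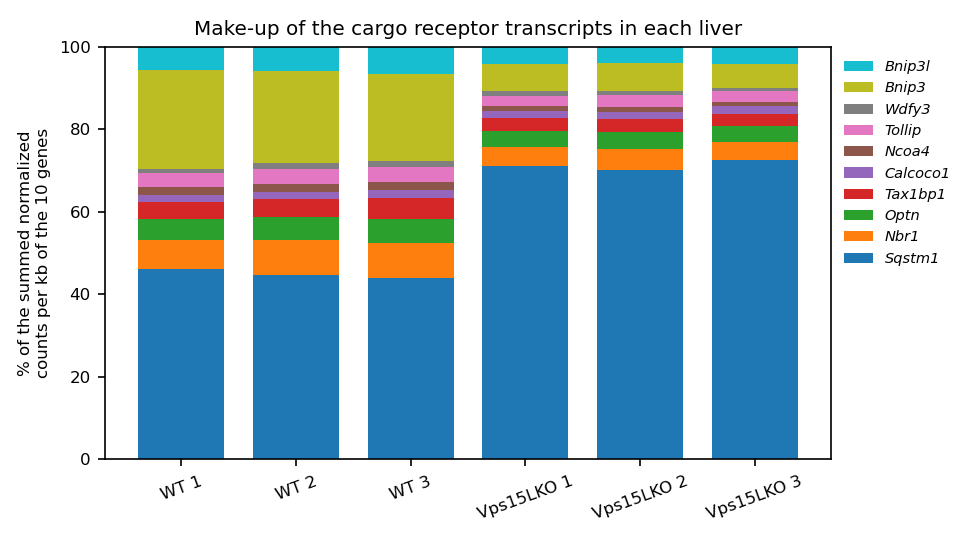
Share of each gene in the summed normalized counts per kilobase of exons of the 10 receptors (y axis, %), with 1 stacked bar per liver. Sqstm1 takes 44.9% on average in WT and 71.3% in Vps15LKO livers, and Bnip3 22.5% and 6.39%.

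In WT livers the order of levels, in mean normalized counts per kilobase of exons, was Sqstm1 (3037), Bnip3 (1521), Nbr1 (539), Bnip3l (405), Optn (371), Tax1bp1 (299), Tollip (243), Ncoa4 (129), Calcoco1 (126) and Wdfy3 (81.7). Neighbours in this order did not overlap over the 3 livers, with the exception of Ncoa4 and Calcoco1. In Vps15LKO livers Sqstm1 (5538) stood more apart from Bnip3 (497), which came close to Nbr1 (368), Bnip3l (320.2) and Optn (303). Nbr1 overlapped with Bnip3l there, and Bnip3l with Optn. Calcoco1 (141) lay above Ncoa4 (91.6), which overlapped with Wdfy3 (72.4). The order depends on the length taken for each gene, since with the longest coding transcript Tax1bp1 came behind Bnip3 in WT (909.8 beside 1961) and ahead of it in Vps15LKO livers (720.6 beside 641).

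The 7 lists around the receptors (63 genes, 61 of them tested) together gave 18 called higher, 24 called lower and 19 not called. Over all tested genes 33.5% were higher and 33.0% lower, so the pooled counts do not set the 7 lists apart as a whole. Single lists went in different directions, and their counts are given below. Among 14 tested further receptors, for mitochondria, endoplasmic reticulum, glycogen and other cargo, 9 fell and 1 rose, with a median log2 fold change of −0.34. The rise was that of Fundc1, a mitophagy receptor of the outer mitochondrial membrane (135, 129.9 and 124 normalized counts in WT against 260.4, 201 and 289 in livers of Vps15LKO mice, log2 fold change 0.93). The largest fall was that of Stbd1, which tethers glycogen (1497, 1465 and 1330.5 against 691, 669 and 604, log2 fold change −1.13). Calcoco2 was at 0 in all 6 livers. With equal read totals 7 of these receptors were called higher and 1 lower, beside 66.7% and 11.1% of all tested genes.

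The Atg8 proteins, which the receptors bind, included 2 of 5 that fell. Gabarapl1 was at 9543, 9336 and 6418 normalized counts in WT livers and at 2664, 3202 and 2094 in livers of Vps15LKO mice (log2 fold change −1.67), and it was lower with equal totals too (−0.94). Gabarapl2 had a log2 fold change of −0.35 (566, 551 and 500.1 against 424, 452 and 393), but 0.38 with equal totals. Map1lc3a (−0.24), Map1lc3b (−0.22) and Gabarap (−0.05) were not called (adjusted p = 0.054, 0.10 and 0.73 by limma), and were called higher with equal totals (0.49, 0.50 and 0.68). Upper-quartile scaling called Map1lc3a (−0.33) and Map1lc3b (−0.32) lower, which made 4 of 5 lower. Map1lc3b was also called lower without WT replicate 3 (−0.31). Quantile normalization called Gabarap higher (0.64). Of the 9 kinases, ligases and adaptors that act on the receptors, 6 fell, and the 9 log2 fold changes lay between −1.01 and −0.15, whereas with equal totals 5 were called higher and 0 lower. The largest fall was that of Ulk1, the kinase that starts autophagy (2680 in WT replicate 1, 3213 and 3321 in the others, against 1552.5, 1675 and 1348, log2 fold change −1.01), which with equal totals was at −0.28 and not called.

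Of 7 transcription factors known to act on receptor genes, 2 rose and 2 fell, and with equal totals 5 were called higher and 0 lower. Nfe2l2, which encodes Nrf2, rose from 1537, 1312 and 1469 to 2244, 2328 and 2112 normalized counts (log2 fold change 0.63). Foxo1 fell from 1058, 996 and 874 to 531, 518 and 601 (log2 fold change −0.82, but −0.10 and not called with equal totals). Of 9 Nrf2 target genes, 7 rose and 1 fell, beside 33.5% and 33.0% of all tested genes. The median log2 fold change of the list was 1.41. Slc7a11, the cystine transporter, had no read in any WT liver and 1814, 1489 and 2269 normalized counts in Vps15LKO livers. This was at least 473-fold higher than 3 reads per library would be. Slc7a11 thus passed the filter only with the Vps15LKO livers. With a filter of 20 in every liver 6 Nrf2 targets were called higher and 1 lower. Srxn1, sulfiredoxin, rose by 4.41 on the log2 scale, and Me1, malic enzyme, had a log2 fold change of −1.33.

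Of 9 tested HIF1 target genes, which as a group share a regulator with Bnip3 and Bnip3l, 4 rose and 4 fell, with a median of 0.11. With equal totals 5 were called higher and 2 lower, with a median of 0.83, and quantile normalization also called 5 and 2. Adm, adrenomedullin, had the largest rise (23.9, 17.5 and 21.6 against 84.8, 79.4 and 130.1 normalized counts, log2 fold change 2.15). It passed the filter only with the Vps15LKO livers. With a filter of 20 in every liver 3 HIF1 targets were called higher and 4 lower. Pdk1, a kinase that inhibits pyruvate dehydrogenase, had the largest fall (1529, 1925 and 1078 against 369.6, 422 and 343, log2 fold change −1.96). Of 8 genes for cargo and ubiquitin, 4 rose, with a median log2 fold change of 0.41 and a lowest value of −0.17. The keratin gene Krt8 rose most (3901, 4025 and 3663 against 12044, 10991 and 13302, log2 fold change 1.65), and cholangiocytes, whose markers were higher, also express it. All 8 were called higher with equal totals and with quantile normalization. In the deposited values the count for this list was 2 without WT replicate 2, WT replicate 3 or Vps15LKO replicate 1.

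**Figure D5:**
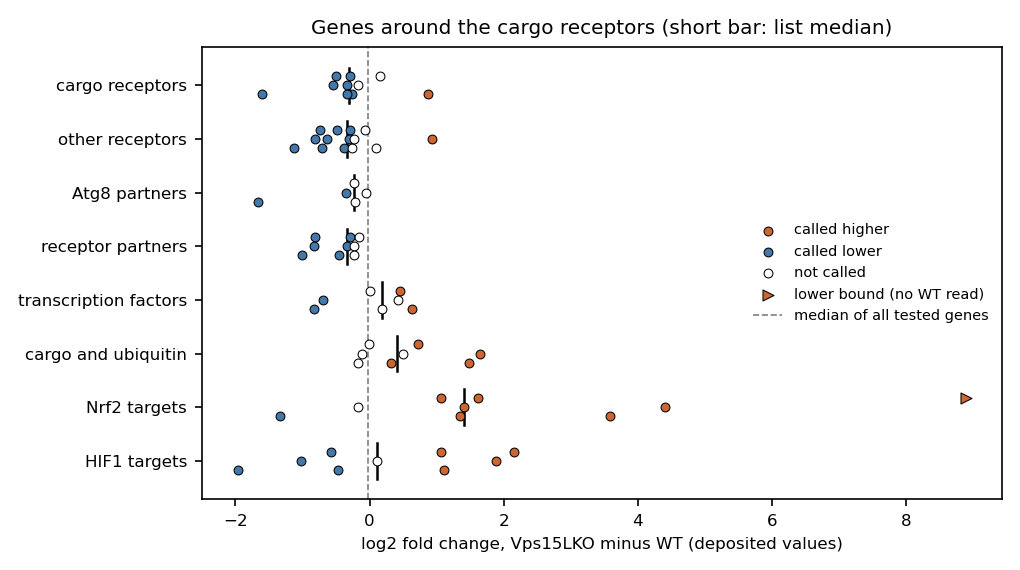
Log2 fold change (Vps15LKO minus WT, deposited values) of each tested gene in the receptor list and 7 lists around it, coloured by call, with a short bar at each list's median and a dashed line at the median of all tested genes. The Nrf2 targets lie furthest right (median 1.41), and Slc7a11 is drawn as a triangle at its lower bound.

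The genes whose pattern over the 6 livers was nearest to that of Sqstm1 were Pagr1b, Arhgap18, Mgat5, H2-D1 and Flt4. Likeness was the root mean square difference of centred log2(normalized count + 1), among 11238 tested genes with a mean of at least 100, and it was 0.0357 to 0.0450 for these 5. Pagr1b and H2-D1 have near-identical copies, so their counts are uncertain. The genes nearest to Bnip3 were Gm45507 (0.0344), which shares its exons in part, Txndc15 (0.0416), Atg3 (0.0466), Chac2 (0.0527) and Dcxr (0.0594). Atg3, the enzyme that conjugates Atg8 proteins to lipid, was at 1710.5, 1553 and 1231 normalized counts in WT livers and at 512, 549 and 453 in livers of Vps15LKO mice (log2 fold change −1.56, and −0.83 with equal totals). The genotype difference takes up most of each of these patterns, so many genes with a like fold change lie close.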

How the data were processed

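Liver RNA of 3 WT and 3 Vps15LKO mice was sequenced as poly-A libraries made with a strand-marking kit on a DNBSEQ instrument. Per the methods and the submitters' processing notes, the authors filtered reads with SOAPnuke, aligned them to GRCm38 (mm10) with HISAT2, obtained gene counts from featureCounts (Subread) and normalized these with DESeq2. Tool versions and the strand and multi-mapping settings are not given in the sources used here. The deposited values are a signal: read counts divided by 1 size factor per library. Whole reads were recovered for 100% of values above 0 in each library (tolerance 0.001 of a read), and on them edgeR called 10205 genes. Gene symbols and coordinates came from GENCODE M21, which matched 55141 of 56305 genes.

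The 15430 genes that reached 20 normalized counts in 3 or more livers were compared with limma 3.58.1 (trend) in R 4.3.3 on log2(normalized count + 1), with Benjamini-Hochberg adjustment over all of them. This scale understates changes of low genes. A call needed an adjusted p below 0.05 together with a 1.2-fold change or more. Groups and replicates came from the sample labels. The limma p-values set the genotype difference against the spread between livers, which limma moderates over all tested genes. The chi-square per gene between replicates (13.99 to 36.38) showed no library to be a copy of another. Ratios were compared with an exact two-sided permutation test. The comparison was tested on simulated data, where 93.9% of 197 changed genes among 14280 were recovered with 11 false calls. In the livers 66.5% of all tested genes were called, and how the comparison performs at such a share was not tested.

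The 10 genes, the gene lists and the tests were chosen with earlier results of these data known. The rule for named genes took all 10 receptors, Pik3r4, in each of the 7 pathway lists the called genes with the largest rise and fall, all genes of the 5-gene Atg8 list, and the 5 genes nearest in pattern to Sqstm1 and to Bnip3. Fth1, Srxn1, Calcoco2 and the overlapping genes stand outside it. Alternatives were pseudocounts of 0.1 and 10, other filters, scalings (TMM, upper quartile, total reads, quantile), no trend, each replicate left out, replicate number as a block, the recovered reads tested with DESeq2 1.42.0, edgeR 4.0.16 or limma voom, and other fold thresholds. A longest-transcript length was added after the data were seen. Python 3.11.15, pandas 2.3.3, scipy 1.17.1 and matplotlib 3.10.9 were used.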

Additional observations from a re-analysis of the deposited data

How the results depend on the processing

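Of the 10 receptors, Sqstm1 and Bnip3 kept direction and call under all 21 alternatives. The log2 fold change of Calcoco1 stayed above 0 throughout, and it was called higher with equal read totals (0.88) and quantile normalization (0.30). With equal read totals 7 receptors were called higher and 1 lower, and 42 genes of the 7 surrounding lists higher and 5 lower. That setting turned the direction of Nbr1 (0.17), Optn (0.43), Tax1bp1 (0.39), Ncoa4 (0.23), Tollip (0.46), Wdfy3 (0.55), Bnip3l (0.39), Pik3r4 (0.19), Map1lc3a (0.49), Map1lc3b (0.50), Gabarap (0.68) and Gabarapl2 (0.38). It called 10299 of all genes higher and 1712 lower, beside 5163 and 5099. Quantile normalization called 2 receptors higher and 2 lower, beside 4692 and 5801 of all genes, left Nbr1, Optn, Tollip and Bnip3l near 0 without a call, and turned Tax1bp1 (0.17), Wdfy3 (0.086), Map1lc3b (0.24) and Gabarap (0.64). Gabarap was also turned without WT replicate 3 (0.017), and ranged from −0.14 to 0.017 over the replicates left out. A fold threshold of 1.5 left 1 receptor called lower and 14 genes of the lists, fewer by construction. The call as lower was kept in 12 alternatives for Optn and in 8 for Tollip, lost in 8 and 12, and turned to higher in 1 for each. With the longest coding transcript as length, the Sqstm1 share was 40.4% in WT and 66.3% in Vps15LKO livers, and the Bnip3 share in WT was 20.8%. Leaving out each replicate gave log2 fold changes of 0.79 to 0.93 for Sqstm1, −0.63 to −0.48 for Nbr1, −0.56 to −0.40 for Ncoa4 and −1.72 to −1.52 for Bnip3.

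The replicate numbers did not pair the livers, since deviations of same-numbered livers correlated at −0.0099, −0.0114 and 0.0485. With replicate number as a block 1 receptor was higher and 7 were lower, and 10048 genes were called beside 10262.

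The log2 differences of Calcoco1 and Wdfy3 were below the fold threshold as well as above the adjusted p threshold. The cause of the dependence on scaling was not tested.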
